A study of Mus musculus with 28 samples.

Results

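Transcripts of 116 mouse genes of the ubiquitin system were followed in testis RNA of mice with and without GRTH, the gonadotropin-regulated testicular RNA helicase encoded by Ddx25. They comprised every gene whose array annotation gives a symbol of Rnf followed by a number (78 genes), or one that starts with Ube2 (33) or Ubqln (5), and all of the probe sets that name 1 such gene were used. This gave 258 probe sets, of 34945 probe sets and 18193 genes in all. A probe set is a group of short probes against a stretch of a transcript, and 75 of the genes had several, up to 7. At least 1 comparison tested 222 of the 258 probe sets and 109 of the 116 genes. The others stayed under the signal filter throughout, among them all probe sets of Rnf122, Rnf183, Rnf186, Rnf222, Rnf39, Ube2l6 and Ube2ql1. The rule goes by symbol alone, so it also took in Ube2cbp, which is not a conjugating enzyme, and Ube2d-ps and Rnf227, which RefSeq lists as non-coding.

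Ubiquitin is passed along a chain of enzymes: an activating enzyme (E1) charges it, a conjugating enzyme (E2, the Ube2 genes) carries it, and a ligase (E3, here the RING finger proteins of the Rnf genes) directs it to a substrate. Tagged proteins are degraded by the proteasome or altered in function, and ubiquilins, the Ubqln genes, carry tagged proteins to the proteasome. In the testis the pathway is known for the removal of histones and cytoplasm while round spermatids turn into sperm. At that time transcription stops, and many mRNAs are stored before they are translated.

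All samples came from testes of adult male C57BL/6 mice, either GRTH null (KO) or WT. The 10 groups were KO and WT testicular polysome RNA from sucrose gradients (3 arrays each), KO and WT spermatocytes (4 each), KO and WT round spermatids (3 each), KO and WT Leydig cells (2 each), and RNA immunoprecipitated (IP) from polysomes with GRTH antibody or with IgG (2 each). Cells were purified by centrifugal elutriation, per the labels. The study asks which testis mRNAs on polysomes depend on the helicase.

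Ddx25 itself lay between 598 and 4596 units on the KO arrays, against 12998 to 21149 on the WT arrays, and its mean in KO was 4.87% (polysome RNA) to 25.4% (round spermatids) of that in WT. Whether its probes lie in the deleted stretch is not stated by the labels. The free-text descriptions of 4 arrays (KO polysome 1, WT polysome 1 and 2, IgG IP 1) name another group than their titles, which were followed, and the columns of KO and WT polysome 1 and 2 had to be rescaled. The labels do not say which arrays come from separate animals, and p-values here measure only the spread between arrays, which may be technical. Spermatocyte arrays 1 and 2, and likewise 3 and 4, lay closer together (SD of log2 differences 0.19 to 0.203) than the other pairs of a genotype (0.276 to 0.313), as did round spermatid arrays 1 and 2 (0.247 in KO, 0.257 in WT, against 0.325 to 0.398). The labelled fractions were checked by markers: 4 Leydig cell genes summed to 37899 to 38489 units in KO and 20473 to 20492 in WT Leydig cells, against 807 to 953 in KO and 619 to 630 in WT round spermatids. The Leydig cell fractions also held germ cell RNA, with 13 elongating spermatid genes at a summed 132918 to 135430 in KO and 202562 to 205125 in WT. In the spermatocyte fractions the same 13 genes summed to 77163 to 84560 in KO and 134520 to 163844 in WT. The 4 Leydig cell genes summed there to 5714 to 6321 in KO and 4019 to 4645 in WT. A change in a fraction is therefore not assigned to 1 cell type.

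The promoters of 4 genes are printed because their genes carry the findings below: Rnf133 and Rnf148 fell together and lie beside each other, Ube2j1 encodes an E2 that fell with them, and Rnf138rt1 went the other way. Each run is the 250 bases before the RefSeq gene start in GRCm38.p6, 5′ to 3′ on the gene's strand, at chr6:23650306-23650555 (minus), chr6:23655137-23655386 (minus), chr4:33031130-33031379 (plus) and chrX:163761333-163761582 (minus).
Rnf133: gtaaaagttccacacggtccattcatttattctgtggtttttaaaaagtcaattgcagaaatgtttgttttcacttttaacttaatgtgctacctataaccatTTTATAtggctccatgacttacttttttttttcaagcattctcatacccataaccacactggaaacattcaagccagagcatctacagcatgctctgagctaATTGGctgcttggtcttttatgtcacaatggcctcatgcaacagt
Rnf148: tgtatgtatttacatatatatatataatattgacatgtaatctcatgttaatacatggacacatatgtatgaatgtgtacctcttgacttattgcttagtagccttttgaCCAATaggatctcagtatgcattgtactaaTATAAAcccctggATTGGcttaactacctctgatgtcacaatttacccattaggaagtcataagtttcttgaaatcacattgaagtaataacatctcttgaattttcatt
Ube2j1: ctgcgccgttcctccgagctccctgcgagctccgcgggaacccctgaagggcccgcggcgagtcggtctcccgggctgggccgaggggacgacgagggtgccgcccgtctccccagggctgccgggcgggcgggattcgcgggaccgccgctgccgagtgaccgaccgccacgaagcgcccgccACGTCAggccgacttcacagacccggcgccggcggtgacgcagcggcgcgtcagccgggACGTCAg
Rnf138rt1: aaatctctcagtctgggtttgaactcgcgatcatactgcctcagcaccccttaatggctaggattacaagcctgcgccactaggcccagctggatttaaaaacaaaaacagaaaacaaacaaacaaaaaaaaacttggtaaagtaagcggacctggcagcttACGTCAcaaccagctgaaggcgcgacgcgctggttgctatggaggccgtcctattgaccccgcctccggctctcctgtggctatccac
Capitals mark matches on either strand to TGACGT, the core of the site of CREM, a spermatid transcription factor, and to TATAAA and CCAAT, common promoter elements; a match in these letters is a description, not a bound site. TGACGT was found at -66 and -7 before Ube2j1 and at -88 before Rnf138rt1, counted from the gene start, and in 6.56% of the 27025 gene windows searched. TATAAA lay at -147 before Rnf133 and at -110 before Rnf148, and was found in 13% of all windows. CCAAT lay at -45 before Rnf133 and at -140 and -97 before Rnf148, and was found in 34.5% of all windows. The Rnf133 and Rnf148 windows had 36.8% and 30.8% GC, below the median of 52% over all windows, and the Ube2j1 window had 77.2%. The longest run that the windows of Rnf133 and Rnf148 shared was 10 bases, atgtcacaat, which 36 of the 27025 windows (0.133%) held. Windows were at hand for 92 of the 116 genes, of which 9 held TGACGT (9.78%), 8 TATAAA (8.7%) and 28 CCAAT (30.4%). Of the genes lower in KO polysome RNA (below) 6 had a window: 1, Ube2j1, held TGACGT, 2 held TATAAA and 3 CCAAT. No window was at hand for Rnf138, Ube2g2 and Ubqlnl. In GRCm38.p6 Rnf133 occupies chr6:23648869-23650305 and Rnf148 chr6:23653895-23655136, 3589 bases apart on the same strand.

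In KO polysome RNA 9 of the 197 probe sets tested passed an adjusted p under 0.05, and all 9 were lower than in WT. Over all 22519 probe sets 2.34% passed, 2.17% as lower and 0.164% as higher. They belonged to 5 ligases (Rnf133, Rnf138, Rnf144a, Rnf148, Rnf4), 3 conjugating enzymes (Ube2g2, Ube2j1, Ube2k) and 1 ubiquilin (Ubqlnl). The median log2 difference of the 197 was 0.09, against 0.161 over all probe sets tested. At an unadjusted p under 0.05 there were 27. All differences are limma's, on log2(signal + 16), given ± SE.

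Of the testis ligases, Rnf133, a RING protein of the endoplasmic reticulum membrane known in mouse spermatids, had the largest fall of the family in polysome RNA. Its signals were 891, 774 and 557 on the 3 KO arrays, against 6444, 7753 and 7451 on the 3 WT arrays. The groups lay far apart, a log2 difference of -3.28 ± 0.25 (adjusted p = 0.00211), or 9.70-fold lower in KO. Its neighbour Rnf148, a similar testis RING protein, read 1048, 1257 and 841 in KO, against 2290, 3195 and 2515 in WT. No KO array reached the WT range, and the log2 difference was -1.34 ± 0.25 (adjusted p = 0.0316). Rnf151, a testis RING protein studied in mouse acrosome formation, gave 4123, 2459 and 2121 in KO, against 6324, 8386 and 5859 in WT. The groups did not overlap, but the difference of -1.28 did not pass (adjusted p = 0.0826).

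Among the genes of degradation at the endoplasmic reticulum, 2 E2 genes fell. Ube2j1, a membrane-anchored E2 needed for normal spermatids in mice, had 2466, 2122 and 1687 units in KO, against 8553, 8802 and 9709 in WT. All KO arrays lay far below the WT arrays, with a log2 difference of -2.12 ± 0.23 (adjusted p = 0.00312). Ube2g2, an E2 that works with ligases of the same membrane, had 579, 612 and 433 units in KO, against 2104, 2682 and 2037 in WT. This was a log2 difference of -2.04 ± 0.24 (adjusted p = 0.00396), or 4.12-fold lower in KO. Rnf139, a sterol-regulated ligase of this membrane, stayed just outside the threshold at -0.97 (adjusted p = 0.0709).

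Ubqlnl, a ubiquilin-like gene on chromosome 7, was the other member with a fall above 8-fold. It read 258, 428 and 141 in KO polysome RNA, against 2001, 2704 and 2114 in WT. The difference was -3.08 ± 0.37 (adjusted p = 0.00415), and no KO array came near the WT range. Its neighbour Ubqln5, 18435 bases away, read 628, 671 and 384 in KO, against 1008, 1605 and 968 in WT, and did not pass (-1.07, adjusted p = 0.158). The ubiquitously expressed ubiquilins Ubqln1, Ubqln2 and Ubqln4 had log2 differences of 0.14 to 0.86, none of them past the threshold.

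The other 4 genes that fell have roles outside the testis as well. Rnf138, a ligase of DNA repair in human cells, read 2311, 2189 and 2122 in KO, against 6702, 9812 and 8818 in WT (-1.91 ± 0.23, adjusted p = 0.00428). Rnf4, which ubiquitinates proteins tagged with SUMO, read 3240, 2466 and 2193 in KO, against 6053, 7134 and 6635 in WT (-1.34 ± 0.24, adjusted p = 0.0240). Both had KO arrays close to each other and well below the WT arrays. Ube2k, an E2 that builds chains read by the proteasome, had 5428, 5246 and 6553 units in KO, against 14084, 12391 and 20077 in WT (-1.41 ± 0.26, adjusted p = 0.0271). Rnf144a, a ligase of the RING-between-RING type, had 174, 155 and 175 units in KO, against 374, 615 and 452 in WT (1421242_at, -1.40 ± 0.25, adjusted p = 0.0238). Its other tested probe set, 1438404_at, was at 0.15 (adjusted p = 0.823). Rnf41, a regulator of receptor levels, lay just outside the threshold (1453633_a_at, -1.39, adjusted p = 0.0526).

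**Figure D1:**
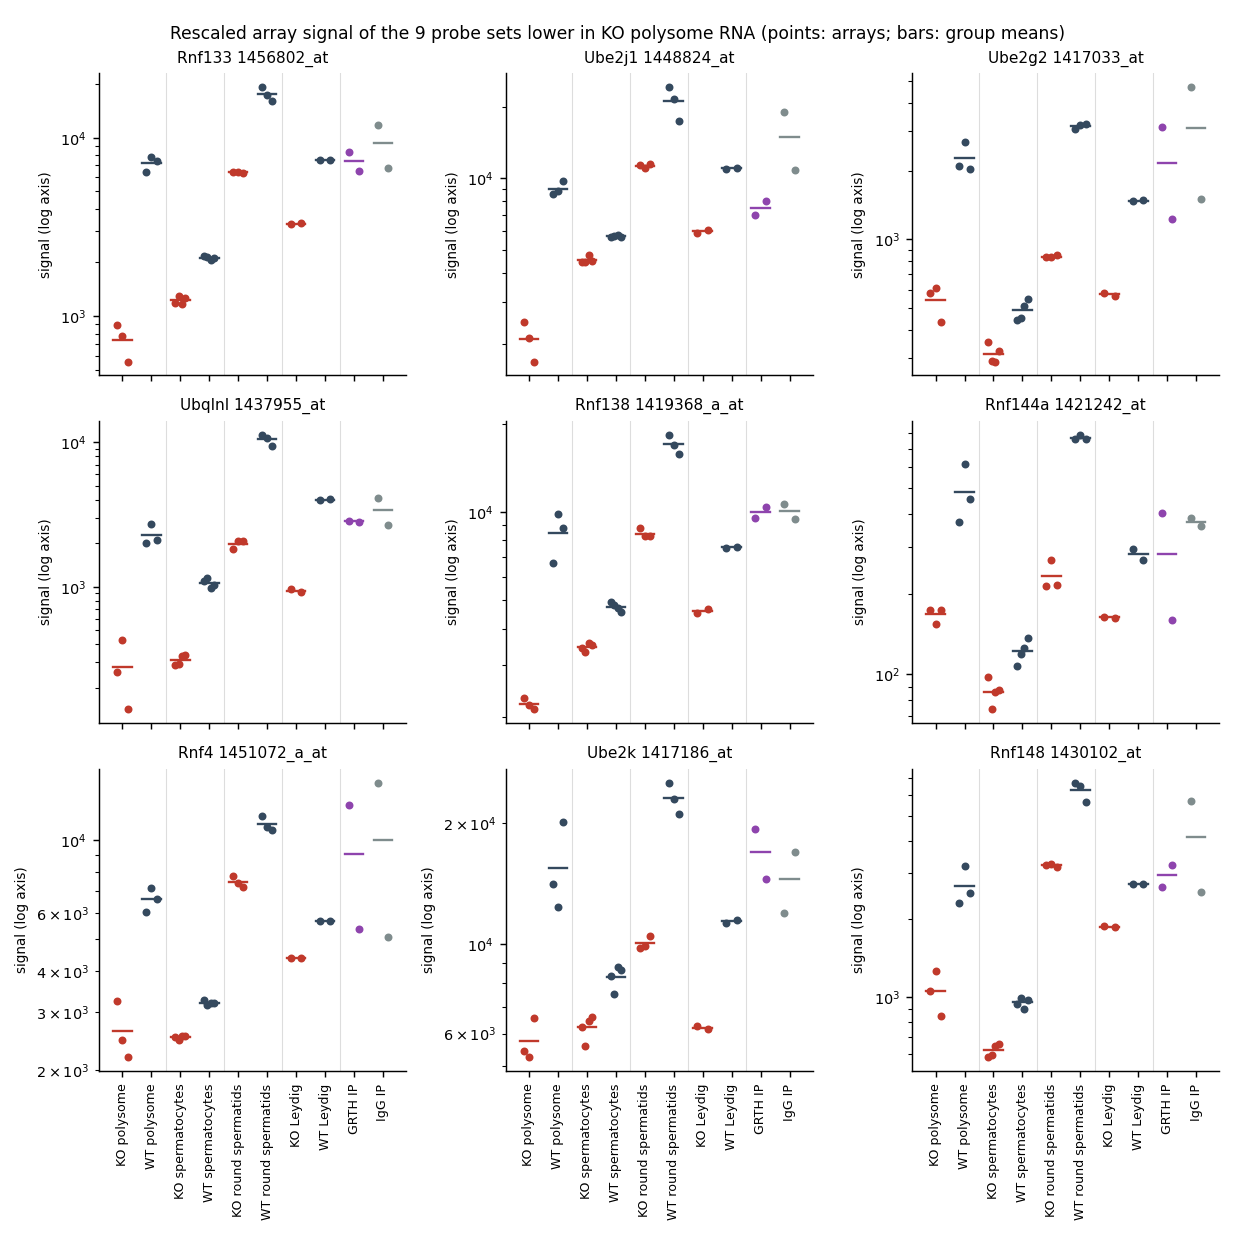
Rescaled signal (log axis) of the 9 probe sets lower in KO polysome RNA, 1 panel each, in all 10 groups; points are arrays and bars are group means. In each panel the 3 KO polysome arrays lie below the 3 WT polysome arrays, and the WT round spermatids lie above the WT spermatocytes.

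These calls did not all rest equally on the arrays. Rnf133, Ube2j1, Ube2g2, Ubqlnl and Rnf138 passed whichever array was left out, with adjusted p of 0.00502 to 0.0278. Rnf148 passed under no removal (0.0533 to 0.138). Rnf4 passed only without KO replicate 1 (0.0488) or WT replicate 2 (0.0458), with 0.0743 to 0.115 otherwise. Rnf144a (0.0396) and Ube2k (0.0236) passed only without WT replicate 2, with 0.0552 to 0.102 and 0.0783 to 0.13 otherwise. Without the 3 polysome arrays whose descriptions conflict, limma called 0 of the 22519 probe sets, with 23 members at an unadjusted p under 0.05, but that fit had 2 KO arrays, 1 WT array and 1 residual degree of freedom and says little about the calls. The 9 differences then ran between -3.47 (Rnf133, adjusted p = 0.0631) and -1.28 (Rnf148, 0.359). Same-numbered polysome arrays deviated together, but those numbered 1 and 2 are also the columns that had to be rescaled. A true pairing and shared processing cannot be told apart. With the replicate number as a block, 21 members passed and all 9 were kept. The 12 added were 8 lower (Rnf41, Rnf139 on both probe sets, Rnf151, Ubqln5, Rnf141, Rnf125 and Rnf24) and 4 higher, Ube2c, Ube2h, Ubqln4 and Ube2d2a (adjusted p 0.0148 to 0.0453).

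Spermatid markers moved with these falls. The 13 elongating spermatid genes summed to 31152 to 58896 units on the KO polysome arrays, against 237936 to 476825 on the WT arrays, and 20 of their 24 tested probe sets were lower in KO (median -2.73). Of the round spermatid markers 2 of 10 probe sets were lower, and of the spermatocyte markers 0 of 7 were called, at an unadjusted p under 0.05 also 0. The 4 Leydig cell genes summed to 25879 to 42362 units in KO, against 12064 to 26740 in WT, where the ranges overlap. None of their 6 tested probe sets was called (2 at an unadjusted p under 0.05), with a median of 1.02. No marker gene of these lists was at 0 in any group. The 13 elongating spermatid genes also summed to 357232 to 492700 units on the WT round spermatid arrays. That list is therefore not assigned to 1 spermatid stage. In bulk RNA, fewer cells of a type and less RNA per cell cannot be told apart, and the part of cell makeup in the falls was not tested.

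The same 9 probe sets were lower in the KO cells of all 3 fractions, on arrays other than the polysome arrays. Their log2 differences lay between -2.39 and -0.58 in round spermatids (median -1.19), between -1.72 and -0.33 in spermatocytes (median -0.46) and between -2.08 and -0.37 in Leydig cells (median -0.88). All 27 differences passed the threshold. Over all probe sets 15% passed as lower in round spermatids, 11.5% in spermatocytes and 25.3% in Leydig cells. How many of all probe sets lower in KO polysome RNA also fell in each fraction is not given here. Most elongating spermatid marker probe sets were lower in these fractions too, as given below. Other probe sets of the 9 genes mostly did not fall. Of 8 tested in round spermatids 3 were higher and 1 lower, and of 6 in spermatocytes 2 were higher and 0 lower. Of 6 in Leydig cells 5 were higher and 0 lower. Of the last 2 fractions none was lower at an unadjusted p under 0.05 either. Ube2j1 1417723_at was higher in round spermatids (0.41 ± 0.08), spermatocytes (0.44 ± 0.11) and Leydig cells (0.17 ± 0.03), and Rnf138 1454064_a_at in the same 3. Rnf4 1423654_a_at was higher in round spermatids (0.33 ± 0.07, adjusted p = 0.0144). With centred arrays or quantile normalization the round spermatid calls of Ube2j1 1417723_at and Rnf4 1423654_a_at were lost, and with centred arrays the Leydig differences of all 3 turned. Without 1 array the spermatocyte call of Rnf138 1454064_a_at held in 1 of 8 fits (adjusted p 0.0466 to 0.113), that of Ube2j1 in 5 of 8 (0.0183 to 0.0571), its Leydig call in 1 of 4 (0.0403 to 0.0775) and the round spermatid call of Rnf4 in 3 of 6 (0.0219 to 0.063). With the replicate block the spermatocyte call of Rnf138 1454064_a_at was lost (0.0741). The lower one was Rnf144a 1438404_at in round spermatids (-1.28 ± 0.21, adjusted p = 0.00425). For the 9 probe sets themselves, in each fraction Ubqlnl had the largest fall of the 9. It read 1829, 2061 and 2068 in KO round spermatids, against 11296, 10735 and 9468 in WT, and averaged 311 ± 28 in KO spermatocytes and 1064 ± 74 in WT spermatocytes (SD, n = 4 each). Rnf133 read 6444, 6389 and 6329 in KO round spermatids, against 19243, 17454 and 16052 in WT, a difference of -1.45 ± 0.09 (adjusted p = 0.000229). On the spermatocyte arrays it was 1181, 1300, 1172 and 1258 in KO, against 2183, 2158, 2072 and 2111 in WT, a smaller step of -0.79 ± 0.05. In the Leydig cell fraction it was 3285 and 3317 in KO, against 7476 and 7537 in WT. With the near-identical arrays averaged first, all 9 stayed past the threshold in round spermatids (adjusted p 0.0102 to 0.0382), while in spermatocytes Ubqlnl (0.0275) and Rnf133 (0.0399) did and the other 7 did not (0.0719 to 0.158).

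**Figure D2:**
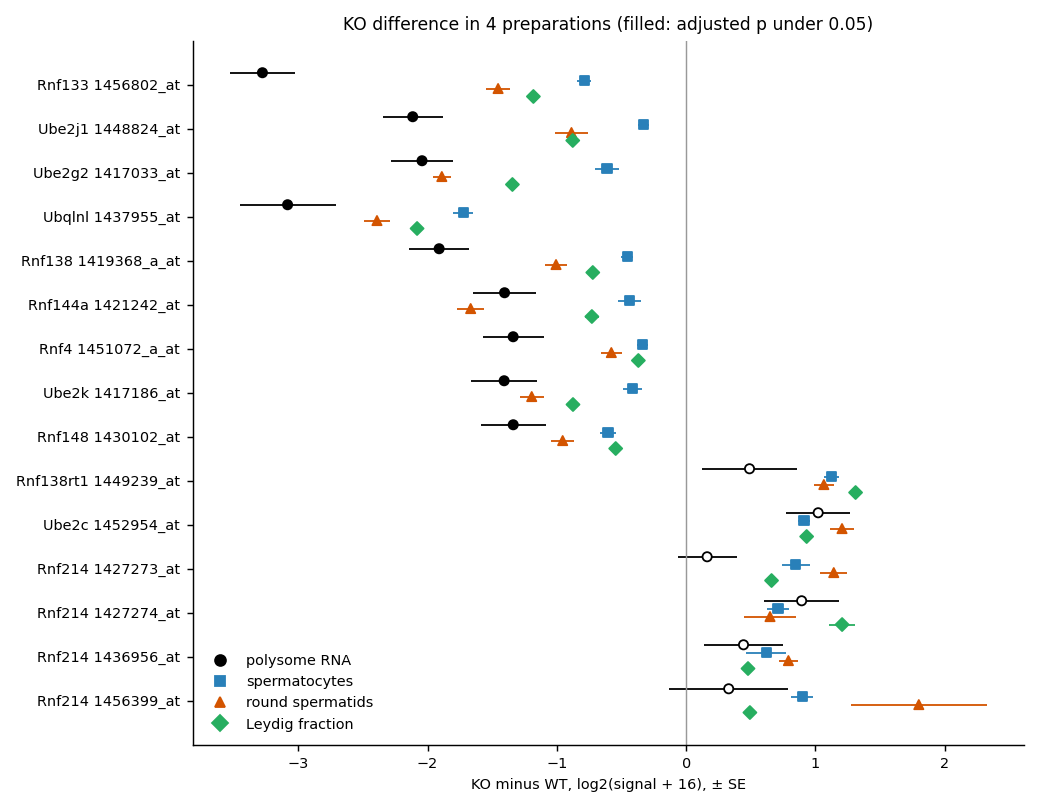
KO minus WT log2 differences with SE for the 9 probe sets lower in KO polysome RNA and the 6 of Rnf138rt1, Ube2c and Rnf214, each in 4 preparations. Filled markers have an adjusted p under 0.05. The 9 probe sets lower in KO polysome RNA are below 0 in all 4 preparations, while Rnf138rt1 and Ube2c are above 0.

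In KO round spermatids 98 of 188 member probe sets passed, 70 higher and 28 lower, in 69 genes. Over all probe sets 43.9% passed, 28.9% as higher and 15% as lower, and the members' share of lower calls is close to that background. The medians were 0.19 for the members and 0.130 for all. Scaling sets this split: it was 54 higher and 36 lower after quantile normalization and 39 higher and 47 lower after centring arrays on medians, which move the median of all probe sets to 0.0472 and -0.078. At 2-fold or more, 8 were higher (3.24% of all probe sets were) and 9 lower (3.06%). With the near-identical arrays averaged 47 passed, 46 of them among the 98. Of the elongating spermatid markers, 20 of 26 probe sets were lower and 1 higher in these cells, and 4 of 7 spermatocyte markers were higher, and their part in the members' changes was not tested.

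By role, 12 of 27 probe sets of the chromatin and DNA damage genes were higher and 4 lower in KO round spermatids (44.4% and 14.8%, beside 28.9% and 15% of all probe sets), a split that was not tested. Rnf2, the catalytic ligase of Polycomb repressive complex 1, was higher on 4 of its 5 tested probe sets, by 0.60 to 1.44, and 0.09 on the fifth (adjusted p = 0.847). The smallest, on 1424873_at, passed only without WT replicate 3 (adjusted p = 0.00444) or KO replicate 1 (0.035), with 0.0522 to 0.0569 without each other array. The largest of these changes, on probe set 1448042_s_at, rested on 287, 315 and 269 units in KO against 73.7, 97.7 and 124 in WT. Ube2t, the E2 of the Fanconi anaemia pathway, read 1374, 1469 and 1486 in KO, against 657, 698 and 768 in WT on 1422462_at (1.01 ± 0.09, adjusted p = 0.000568), and was at -0.05 on 1442398_at (adjusted p = 0.758). Ube2b, an E2 that mice need for male fertility, split by probe set: 1439477_at was higher (1.25) and 1423107_at lower (-0.71). The general conjugating enzymes had 9 of 18 probe sets higher and 1 lower. Ube2h was at 1.74 ± 0.46 (adjusted p = 0.0230) on 1418632_at, from 200, 177 and 200 units in KO against 16.3, 43.2 and 110 in WT. That call held only without WT replicate 1 (0.0324) or 3 (0.00266), with 0.0577 to 0.0631 without each other array, and the low WT signals vary widely. Its probe sets 1428791_at and 1418631_at rose less: without WT replicate 1 they were at 0.57 and 0.24, against 1.27 on 1418632_at. Their calls held in 2 and 1 of 6 fits with 1 array left out.

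Of the ubiquilins, all 8 tested probe sets passed in these cells, 6 higher and 2 lower. The higher ones belong to the ubiquilins made in most tissues, Ubqln1 (0.45 and 0.77), Ubqln2 (0.59 and 0.88) and Ubqln4 (0.35 and 0.45), and the lower ones to the testis genes Ubqlnl and Ubqln5 (-0.38 ± 0.09, adjusted p = 0.0136). Ubqln5 read 1819, 1929 and 1879 in KO, against 2331, 2359 and 2682 in WT, a fall that left the groups apart. Ubqln2 read 172, 198 and 161 on 1450021_at in KO, against 101, 132 and 104 in WT, with no overlap. Directions were the same under both other scalings, but neither call of Ubqln4 passed there, and that of Ubqln1 on 1419385_a_at did not pass with centred arrays. The call of Ubqln4 on 1448691_at was also lost without WT replicate 1 (0.0709) or 2 (0.0634) or KO replicate 2 (0.0835) or 3 (0.0627), and that on 1448692_at without KO replicate 2 (0.05).

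Among the falls in KO round spermatids outside the 9, Ube2r2, an E2 of cullin ligases, was one that did not pass in polysome RNA or spermatocytes. Probe set 1415768_a_at read 550, 538 and 489 in KO, against 1384, 1459 and 1093 in WT (-1.28 ± 0.13, adjusted p = 0.000789). On polysome arrays the same probe set read 617, 758 and 938 in KO, against 614, 702 and 806 in WT, where the groups overlap. Its other tested probe set, 1444460_at, was at 0.04 in round spermatids (adjusted p = 0.911). Rnf170, a ligase of the endoplasmic reticulum that acts on inositol trisphosphate receptors, was lower on 1431195_at (-1.72 ± 0.36, adjusted p = 0.0103), from signals of 50.1, 23.3 and 94.2 in KO and 189, 180 and 238 in WT, and was at 0.02 on 1434956_at (adjusted p = 0.907).

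In KO spermatocytes 48 of 199 member probe sets passed, 25 higher and 23 lower, in 39 genes, which is close to the background of 24.4% (12.9% higher, 11.5% lower). The members' median was 0.02, against 0.0375 over all. Differences were small: 1 rose and 2 fell by 2-fold or more, where 0.431% and 0.693% of all probe sets did. The riser was Rnf138rt1 (1.13), and the fallers were Ubqlnl (-1.72) and Rnf24 (-1.70), a membrane RING protein, whose probe set 1453929_at read 11.4, 11.1, 27.2 and 32.6 in KO against 39.8, 134, 118 and 137 in WT. Averaging the near-identical arrays left 6 calls: Ubqlnl, Rnf133 and Rnf181 as lower and Rnf138rt1, Ube2c and Rnf214 as higher. Here 21 of 23 elongating spermatid probe sets were lower (median -0.98), a list whose part in the members' falls was not tested.

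The KO Leydig cell fraction had 125 of 191 member probe sets past the threshold, 71 higher and 54 lower, in 82 genes. The background was 64.4% (39.1% higher, 25.3% lower), so the members' share is near it, and each group held 2 arrays (83 passed without KO replicate 2). The split became 54 higher and 66 lower after quantile normalization and 42 higher and 99 lower with centred arrays (medians of all probe sets 0.0743 as scaled, -0.033 and -0.144). By at least 2-fold 6 rose and 4 fell, where 7.54% and 1.47% of all probe sets did. The risers were Rnf138rt1 (1.31), Rnf214 (1.21), Ubqln2 (1.11), Ube2g1 (1.08), and the membrane ligases Rnf13 (1.06) and Rnf130 (1.02). The fallers were Ubqlnl, Ube2g2, Rnf133 and, on a dim probe set, Rnf187 (-1.43). Ubqln2, a ubiquilin mutated in a form of human motor neuron disease, read 1126 and 1118 in KO Leydig cells, against 519 and 501 in WT. In the same fractions all 6 Leydig cell marker probe sets were higher in KO (median 1.19), as were 8 of 9 macrophage probe sets (median 1.01), and 22 of 24 elongating spermatid probe sets were lower (median -0.67). The part of these cell types in the members' changes was not tested.

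Against these falls, Rnf138rt1, Ube2c and Rnf214 were higher in KO in all 3 cell fractions. Rnf138rt1, by its name a retrotransposed copy of Rnf138 and located at chrX:163760139-163761332, read 3382, 3423 and 3429 in KO round spermatids, against 1601, 1727 and 1543 in WT. In spermatocytes it read 707, 732, 727 and 773 in KO, against 315, 349, 308 and 340 in WT. Neither comparison had overlapping groups (1.07 ± 0.08, adjusted p = 0.000351, and 1.13 ± 0.06, adjusted p = 1.03e-05). In polysome RNA the groups overlapped (1115, 1217 and 548 in KO, against 612, 900 and 477 in WT; 0.49 ± 0.36, adjusted p = 0.572). Rnf138 itself split by probe set in the same cells: 1419368_a_at fell by 1.01 in round spermatids and 0.46 in spermatocytes on the log2 scale, while 1454064_a_at was higher in both (0.57, adjusted p = 0.00222, and 0.18, adjusted p = 0.0476). Whether probes of one bind transcripts of the other was not tested.

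Ube2c, the E2 of the anaphase-promoting complex that drives exit from cell division, read 3923, 3836 and 3767 in KO round spermatids, against 1572, 1558 and 1856 in WT (1.21 ± 0.09, adjusted p = 0.000425). In spermatocytes it averaged 1840 in KO and 971 in WT (0.91 ± 0.04, adjusted p = 8.16e-06), and in Leydig cells 1744 in KO and 906 in WT (0.93). Polysome signals were 1358, 2023 and 1827 in KO, against 700, 894 and 932 in WT, again without overlap, but the difference of 1.02 ± 0.25 did not pass (adjusted p = 0.0914; with the replicate block 0.0178). Rnf214 was higher on all 4 of its probe sets in each cell fraction, by 0.62 to 0.90 in spermatocytes, 0.65 to 1.80 in round spermatids and 0.48 to 1.21 in Leydig cells. Without WT replicate 1 the 1.80 on 1456399_at became 1.15 (adjusted p = 0.00424). Its calls on 1456399_at and 1427274_at in round spermatids were lost without KO replicate 1, 2 or 3 (adjusted p 0.0737 to 0.113), and that on 1427274_at also without WT replicate 1 (0.072) or 2 (0.078), and that on 1436956_at in spermatocytes without KO replicate 2 (0.0548) or WT replicate 1 (0.0573) or 2 (0.0542). On 1427273_at it read 537, 536 and 558 in KO round spermatids, against 208, 239 and 269 in WT. Rnf214 lies on chromosome 9 at 45856769 to 45906911 in GRCm38.p6, 10.30 Mb from Ddx25. Of the other members on this chromosome, Rnf26 (8.55 Mb away) was also higher in KO spermatocytes (0.49) and round spermatids (0.56) on 1436824_x_at, but not on 1423650_at (-0.08 and 0.20, neither past the threshold). Linkage to the deleted gene and loss of the helicase cannot be told apart here.

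**Figure D3:**
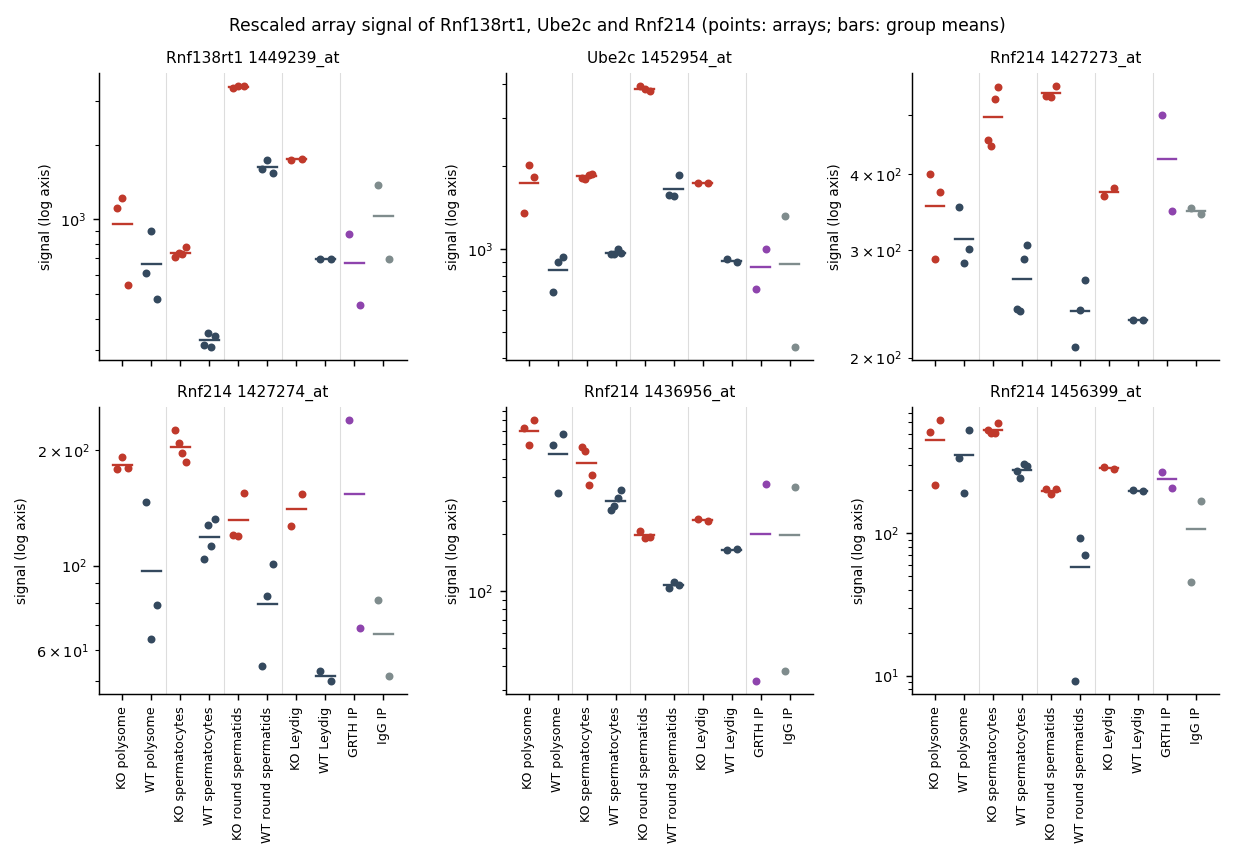
Rescaled signal (log axis) of Rnf138rt1, Ube2c and the 4 Rnf214 probe sets in all 10 groups; points are arrays and bars group means. KO arrays lie above WT arrays in spermatocytes, round spermatids and Leydig cells in every panel, and overlap with them in polysome RNA except for Ube2c and Rnf214 1427274_at.

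To set these changes beside normal development, WT round spermatids were compared with WT spermatocytes. Of 193 member probe sets 164 passed, 68 higher and 96 lower in round spermatids, over a background of 78.9% (33.7% higher, 45.2% lower), with medians of -0.27 for members and -0.160 for all. Centring the arrays turned the split to 82 higher and 74 lower (median of all 0.174). At least 2-fold higher were 26 and lower 53, where 17.3% and 23.2% of all probe sets were. The largest rises were Rnf24 (3.57 on 1453929_at), Ubqlnl (3.28), Rnf133 (3.03), Ubqln5 (2.90), Rnf148 (2.69), Ube2g2 (2.66 on 1417033_at) and Rnf144a (2.51 on 1421242_at). Rnf133, for example, averaged 17583 ± 1599 in round spermatids (SD, n = 3) and 2131 ± 50 in spermatocytes (SD, n = 4). Rnf24 was at 0.17 on 1436101_at (adjusted p = 0.0432), a call kept in 2 of 7 fits with 1 array left out. Rnf144a was at 0.88 on 1438404_at (adjusted p = 0.0234, kept in 4 of 7), and Ube2g2 at -0.35 on 1417032_at. The largest falls were Rnf2 (-3.31 on 1424873_at), Ube2t (-3.12 on 1422462_at, with -0.10 on 1442398_at, not called), Rnf144b (-3.04), a further RING-between-RING ligase, and Rnf6 (-2.99 on 1427898_at). The WT round spermatid arrays serve both here and in the KO comparison, where the values of these probe sets were 0.60 (Rnf2), 1.01 (Ube2t), 0.71 (Rnf144b) and 0.82 (Rnf6), so no relation is drawn between them.

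The polysome arrays share none with the stage comparison, and the members lower in KO polysome RNA were among those that rise at this step. Of 26 member probe sets at least 2-fold higher in WT round spermatids and tested in both, 22 had a negative KO polysome difference and 9 were called lower (34.6%), with a median of -1.08. All 9 polysome falls were in that class. Of 3135 such probe sets on the whole array 68.9% were negative and 14.7% called lower, with a median of -0.33. The array's polysome falls lay mostly there too. Of those tested in both, 462 were in that class, 1 was at least 2-fold lower in round spermatids and 25 were in neither class. Of 53 member probe sets at least 2-fold lower in round spermatids 18 were negative and 0 were called (median 0.19), as against 1096 negative of 4989 over the array. Among the 106 in neither class 0 were called. Across the 185 member probe sets with both values the 2 differences had a Pearson r of -0.531 and a Spearman rho of -0.327, against -0.451 and -0.322 over 19755 probe sets. These are descriptions across probe sets, some of which share a gene, and probe sets are not independent replicates.

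**Figure D4:**
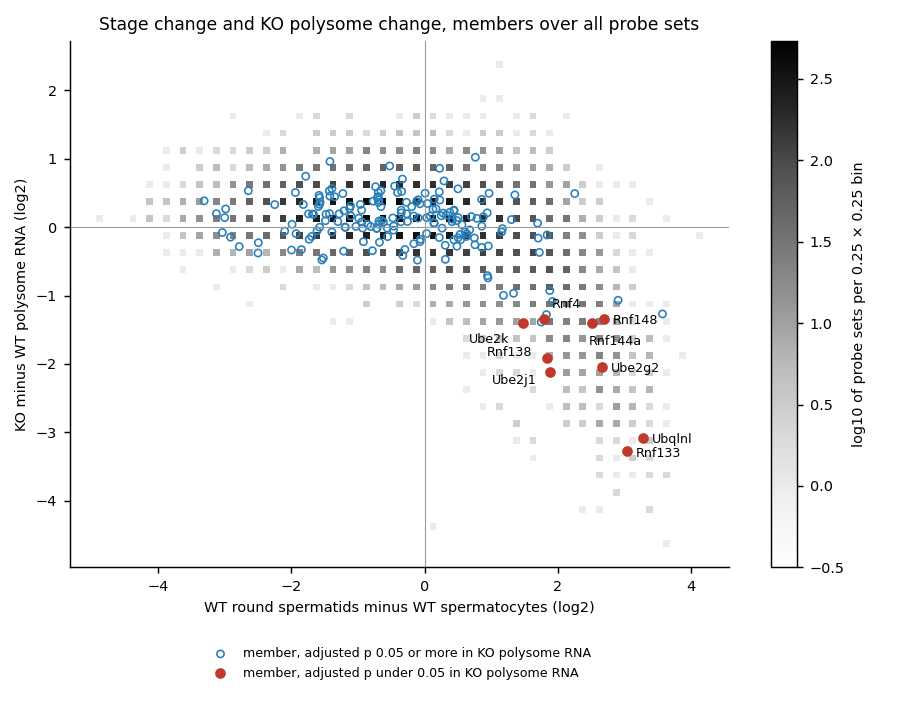
Log2 difference of KO minus WT polysome RNA (vertical) against that of WT round spermatids minus WT spermatocytes (horizontal), for members (circles; filled where the polysome adjusted p was under 0.05) over all probe sets (grey bins). The filled circles lie at the lower right, between 1.47 and 3.28 on the horizontal axis.

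Probe sets of 1 gene often moved opposite ways between the stages. Of 59 member genes with at least 2 tested probe sets, 21 had 1 called higher and another called lower in round spermatids (35.6%), against 16.4% of 4845 genes on the array, and 4 had both by 2-fold or more (6.78%, against 2.97%). No test was made of that difference. In 20 of them both probe sets were also tested in polysome RNA, and the rising one had the lower KO difference in 17 (85%), against 77.6% of 661 genes over the array. Rnf138 was 1.83 on 1419368_a_at and -2.91 on 1454064_a_at between the stages, with KO polysome differences of -1.91 and -0.15. On the second probe set its polysome signals were 2062, 1854 and 3339 in KO, against 2572, 1963 and 3439 in WT, so the groups overlapped. For Ube2j1 the stage values were 1.88 and -1.19, and the polysome values -2.12 and 0.00. Ube2g2 had 2.66 and -0.35, then -2.04 and 0.25, Rnf4 had 1.80 and -0.56, then -1.34 and -0.01, and Rnf141, a testis ligase, had 1.92 and -1.99, then -1.09 (adjusted p = 0.201) and 0.04. Rnf133, Rnf148 and Ubqlnl have 1 probe set each and could not be compared in this way. The labels do not say which transcript forms these probe sets read.

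**Figure D5:**
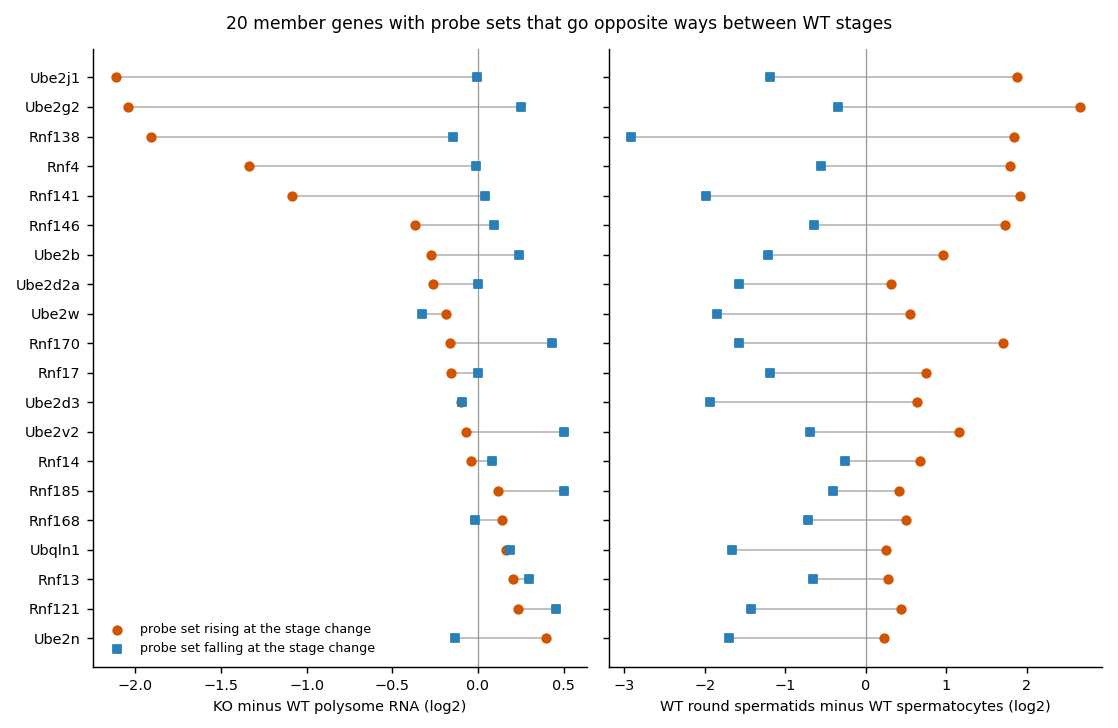
Log2 differences for the member genes with 1 probe set called higher and another called lower in WT round spermatids than in WT spermatocytes: the KO minus WT polysome difference of the stage-rising and of the stage-falling probe set of each gene. For Rnf138, Ube2j1, Ube2g2 and Rnf4 the rising probe set is at -1.34 or below and the falling one between -0.15 and 0.25.

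Whether the KO effect differed between the germ cell stages was tested as an interaction in 194 member probe sets, of which 62 passed, 45 with a higher value in round spermatids and 17 with a lower one, over a background of 31.5% (22% higher, 9.46% lower), so the members' share is at the background. With centred arrays the split was 24 and 36. Ube2g2 fell more in round spermatids than in spermatocytes by 1.28 ± 0.12 on the log2 scale (adjusted p = 2.4e-05), as did Rnf144a (-1.23) and Ube2k (-0.78), Ubqlnl (-0.67) and Rnf133 (-0.67). Ube2t rose more there (0.89 ± 0.09, adjusted p = 3.07e-05). After averaging the near-identical arrays 5 probe sets passed, among them Ube2g2 (adjusted p = 0.0388) and Rnf144a (0.0388), while Rnf133 did not (0.0631). Between polysome RNA and round spermatids 2 of 191 passed, against 0.573% of all probe sets (0.187% higher, 0.386% lower). Rnf133 fell further in polysome RNA (-1.82 ± 0.25, adjusted p = 0.0134), and Ube2r2 differed by 1.39 ± 0.26 (0.0459), having fallen in round spermatids. Neither held with the near-identical arrays averaged (0.208 and 0.366). That of Rnf133 was lost without round spermatid KO replicate 1 (0.0686) or 2 (0.0629) or WT replicate 2 (0.0669). That of Ube2r2 held only without polysome KO replicate 1 (0.0294) or WT replicate 2 (0.0434) or 3 (0.0468), with 0.06 to 0.156 without each other array.

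No member passed as enriched with GRTH antibody. In GRTH IP against IgG IP limma called 0 of 191 member probe sets and 0% of all probe sets, with 6 members at an unadjusted p under 0.05. The largest was Rnf11, a ligase of inflammatory signalling, at 2.62 ± 0.76 (adjusted p = 0.9995). The other 5 were Rnf217 (2.37), Rnf141 (2.34), Rnf112 (2.01), Rnf138 (1.78 on 1419369_at) and Rnf24 (-1.88). Rnf133 read 8308 and 6469 with GRTH antibody, against 11811 and 6752 with IgG, and Ube2j1 read 6981 and 8019, against 18995 and 10776. For Rnf133 the groups overlapped; for Ube2j1 the IgG arrays were the higher ones. The 2 arrays of each antibody differed from each other by an SD of 1.359 (GRTH) and 1.336 (IgG) of log2 differences, against 0.13 to 0.821 in all other groups, and their ratio of 3′ to 5′ actin probes was 3.81 to 12.8, against 1.41 to 2.09 elsewhere. Ddx25 mRNA itself averaged 11453 with GRTH antibody and 14645 with IgG.

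Other lists of the pathway, chosen with earlier results known, were counted in KO polysome RNA, where 2.17% of all probe sets passed as lower. Whether their shares differ from the members' was not tested. Of the ubiquitin and E1 list 0 of 13 probe sets were called. Of the cullin-RING parts 2 of 45 were lower, Klhl10 (-1.60, adjusted p = 0.00737), a testis adaptor that mice need for male fertility, and Skp2 on 1449293_a_at (-2.35, adjusted p = 0.00315) with its 5 other probe sets between -0.58 and -0.14 and not called. Of the other ligases 2 of 76 were lower, Wwp2 (-1.92 on 1448145_at, adjusted p = 0.00681) and Trim36 (-1.42, adjusted p = 0.0245), and of the deubiquitinating enzymes 1 of 58, Otub2 (-2.75 on 1417576_a_at, adjusted p = 0.00241). The other tested probe sets of Wwp2 were at 0.55 (adjusted p = 0.533) and -0.02 (adjusted p = 0.973). That of Otub2 was at -0.87 (adjusted p = 0.186), so the falls of Wwp2 and Otub2 were called on 1 probe set each. In KO round spermatids the same lists had 7 higher and 1 lower of 14 (E1), 10 and 4 of 36 (cullin parts), 31 and 5 of 70 (other ligases) and 23 and 6 of 57 (deubiquitinating enzymes). In KO spermatocytes they had 1 and 0 of 13, 5 and 4 of 44, 14 and 4 of 74, and 5 and 4 of 56. In KO Leydig cells they had 7 and 5 of 13, 7 and 13 of 43, 23 and 18 of 71, and 20 and 20 of 61. The backgrounds given above for each comparison apply to these lists too.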

How the data were processed

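RNA was measured on 28 one-colour Affymetrix-type arrays of 45101 probe sets (64 controls were left out). The authors deposited linear signal intensities made with GCOS, per the submitters' processing notes, with no version given. On 24 arrays the trimmed mean was 500 (a fraction of 0.02 cut at each end). The other 4 columns (KO and WT polysome 1 and 2) were unscaled, so all arrays were rescaled to 500. Differences were tested on log2(signal + 16), which understates changes of dim probe sets, with limma 3.58.1 (lmFit, eBayes) in R 4.3.3. Each of 8 comparisons was fitted on its own groups, over the 22519 probe sets at or above the median mean signal, with Benjamini-Hochberg adjustment and a threshold of 0.05. Tables and figures were made with python 3.11.15, pandas 2.3.3, numpy 2.4.6, scipy 1.17.1 and matplotlib 3.10.9, and the fit was tested on simulated data.

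Probe sets with 1 symbol were named by the platform annotation, and all 258 member Entrez identifiers were found in RefSeq. The members, the pathway lists (ubiquitin and E1, cullin-RING parts, other ligases, deubiquitinating enzymes) and the markers (elongating and round spermatids, spermatocytes, Leydig, Sertoli and macrophage cells) were chosen with earlier results of these data known. Genes were named by a rule: in each comparison up to 12 genes that rose most and 12 that fell most, past the threshold and without overlap, the Ubqln genes, genes whose probe sets disagree, and pathway genes past the threshold; the text names part of them. Same-numbered polysome arrays deviated together (correlations 0.347, 0.564 and 0.593), as did GRTH and IgG IP arrays (0.376) and, more weakly, spermatocyte arrays (0.147 to 0.189). This pairs them by the data, not the labels. The spermatocyte values lie near those of the WT stage arrays (0.093 to 0.111). With the replicate block the IP comparison still had 0 calls, with 15 members at an unadjusted p under 0.05 in limma. Promoter sequences and positions are RefSeq's, GRCm38.p6. Sertoli markers had 0 of 9 probe sets called and macrophage markers 1 of 9 in KO polysome RNA.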

Additional observations from a re-analysis of the deposited data

Results flagged for a closer look

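These results stand out because the KO effect differed between preparations in limma's interaction test, given as differences of log2 differences. Between round spermatids and spermatocytes, the KO effect was higher in round spermatids for Ube2h 1418632_at (2.04, adjusted p = 0.00613), Rnf24 1453929_at (1.31, 0.0401), Rnf2 1448042_s_at (1.22, 0.00138) and 1448043_x_at (0.99, 0.00743), Rnf144b 1425282_at (0.98, 0.0112) and Ube2b 1439477_at (0.90, 0.0191). It was lower in round spermatids for Ube2r2 1415768_a_at (-1.57, 0.000845), Ube2g2 1417033_at (-1.28, 2.4e-05), Rnf144a 1421242_at (-1.23, 7.23e-05), Ube2k 1417186_at (-0.78, 0.000377), Ubqlnl 1437955_at (-0.67, 0.00179) and Rnf133 1456802_at (-0.67, 0.000258). Between polysome RNA and round spermatids, the KO effect was higher in polysome RNA for Ube2r2 (1.39, 0.0459) and lower for Rnf133 (-1.82, 0.0134). With the near-identical arrays averaged, 10 of the 12 differences between round spermatids and spermatocytes no longer passed (adjusted p 0.0614 to 0.257), and those of Ube2g2 and Rnf144a did (0.0388 each). With 1 array left out in turn, that of Rnf24 passed in 3 of 14 fits (0.00113 to 0.0764) and the other 11 in all 14. Both differences between polysome RNA and round spermatids were lost with the arrays averaged (0.366 for Ube2r2, 0.208 for Rnf133). A single array far from the rest was looked for in the groups of 4 arrays, in 30 combinations of a probe set and a group, and 0 had one. Only the spermatocyte groups have 4 arrays, so this says nothing about the round spermatid and polysome arrays. Without WT spermatocyte replicate 1 the difference of Rnf24 1453929_at between round spermatids and spermatocytes became 1.65 (adjusted p = 0.00113).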

How the results depend on the processing

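Of 2415 values of the 166 named differences past the threshold under other settings, 2060 kept direction and call, 351 kept the direction only and 4 turned. With centred arrays the KO Leydig differences of Ube2j1 1417723_at (-0.047), Rnf4 1423654_a_at (-0.025) and Rnf138 1454064_a_at (-0.0078) turned negative, and with quantile normalization the stage difference of Ube2g2 1417032_at became 0.032. Of 1370 values of the 103 differences not past it, 67 passed under another setting and 0 turned. Member calls, beside the main counts above, moved as follows. In KO polysome RNA they were 5 with no filter on low values, 21 with the replicate block, 18 in a fit over 28 arrays, 0 without the arrays of conflicting description (2 KO arrays against 1 WT array, 1 residual degree of freedom, which says little about the calls), and 5 to 9 with 1 array left out. In KO spermatocytes they were 7 over 28 arrays, 6 with near-identical arrays averaged, 38 to 44 with 1 array left out and 58 with the replicate block (42 shared). In KO round spermatids they were 62 with no filter, 36 over 28 arrays, 59 with 1 probe set per gene, 47 with arrays averaged and 72 to 105 with 1 array left out. In KO Leydig cells they were 9 over 28 arrays, 73 with 1 probe set per gene and 83 to 103 with 1 array left out. For GRTH IP the fit over 28 arrays, which borrows its spread from the closer arrays, called 45 (24 higher, 21 lower), and the other settings 0. For the WT stages they were 79 with 1 probe set per gene and 151 to 163 with 1 array left out. For the difference between round spermatids and spermatocytes they were 2 over 28 arrays, 41 with 1 probe set per gene, 5 with arrays averaged and 55 to 71 with 1 array left out. For the difference between polysome RNA and round spermatids they were 0 with no filter, 6 with the replicate block, 4 over 28 arrays, 5 with 1 probe set per gene, 10 without the conflicting arrays, 0 with arrays averaged and 0 to 4 with 1 array left out. Correlations were lowest for same-numbered round spermatid (0.061 to 0.108), Leydig (-0.007) and WT stage arrays (0.093 to 0.111). There the replicate block gave 93, 115 and 157 calls. Other causes of these moves were not tested. The number of arrays, 2 to 4 a group, limits the precision, and dim probe sets near background carry little information.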
